A study of Mus musculus with 2 samples.

Results

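Ntf3, Areg, Ntrk2, P2ry1, Loxl2, Pappa2 and Dapl1 are 7 of the 46983 genes counted in islet cells of 9-day-old (P9) control and Isl1CKO mice, and all but Dapl1 encode a secreted factor, a receptor or a secreted enzyme. They were taken by symbol, and each matched 1 row of the gene list. They had been singled out because their transcripts were scarce in the mutant library, so the differences between the libraries described here chose the genes and are given as descriptions without a test. The libraries are droplet-based single-cell RNA-seq, which counts unique molecular identifiers (UMIs, 1 per captured transcript) at the 3′ end of transcripts. The control library came from Neurod1 Cre/+; Isl1f/+ pups and the library labelled Isl1CKO from Neurod1 Cre/+; Isl1f/f pups. Cre was driven by Neurod1, a gene of endocrine precursors and islet cells, and both groups carried it. The control group carried 1 floxed Isl1 allele, so that it may have lost Isl1 on that allele and is not an intact wild type. Cells of both groups were sorted for the tdTomato reporter after dissociation with actinomycin D (25 µg/ml), which blocks transcription, and each library pooled 6 animals. With 1 library per genotype no difference has a replicate check, no p-value is given, and every interval is an exact 95% interval that covers counting error only.

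Isl1 encodes a LIM-homeodomain transcription factor that islet endocrine cells need to mature. Neurotrophins such as neurotrophin-3 (Ntf3) signal through receptor tyrosine kinases of the Trk family, and amphiregulin (Areg) is shed from the cell surface to activate the EGF receptor. TrkB (Ntrk2) is the receptor of brain-derived neurotrophic factor, and P2Y1 (P2ry1) is a G protein-coupled receptor that senses extracellular ADP, which beta cells release with insulin. Lysyl oxidase-like 2 (Loxl2) oxidises lysines of collagen and elastin for cross-linking, and pappalysin-2 (Pappa2) is a metalloproteinase that cuts insulin-like growth factor binding proteins. Dapl1 encodes a small protein related to death-associated protein.

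The control library held 2504 cells with 72548173 UMIs and the Isl1CKO library 3020 cells with 78068592 UMIs, at medians of 22638.5 and 24906.5 UMIs per cell. Cells were classed by the share of their own UMIs from a hormone gene, and a cell can belong to several classes. Insulin-rich cells (Ins1 and Ins2 at 20% or more) numbered 898 in control and 383 in Isl1CKO. The Gcg-rich class (glucagon, 10% or more) held 617 and 2 cells, the Sst-rich class (somatostatin, 5%) 539 and 6, and the Ppy-rich class (pancreatic polypeptide, 5%) 425 and 3. In Isl1CKO, 1445 cells were Ttr-rich (transthyretin, an alpha-cell product, 5%) and 1190 cells fitted no class, against 257 in no hormone class in control. The Ttr-rich Isl1CKO cells shared Irx1 and Irx2 with control Gcg-rich cells, at 252 and 197 against 152 and 136 UMIs per 1000000 (CPM). Insulin-rich cells of both libraries held the beta-cell gene Ucn3, at 152 and 60.7 CPM. Cells near a class threshold numbered 7 for insulin (16% to 25% of UMIs), 49 for Gcg (8% to 12.5%), 63 for Sst and 149 for Ppy (both 4% to 6.25%) in control, and 54 for insulin and 162 for Ttr in Isl1CKO. The libraries shared 4 barcodes, against 1.11 expected by chance. Isl1 itself (chr13:116298281-116309689, minus strand) was counted at 253 CPM in control and 461 in the library labelled Isl1CKO, which checks neither the deletion nor the label, because the labels do not name the floxed exon and 3′ tags can lie outside it.

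The promoters of 4 of the genes are printed first, since Isl1 is a homeodomain protein and homeodomains bind sequences with a TAAT core. RefSeq start sites on GRCm38.p6 were available for 6 of the 7 genes (not Loxl2), with 7 entries because Ntf3 has 2. TAAT was searched on both strands in the 250 bases before each start. CTAATG, which contains that core, was searched in the same way. TAAT occurred in 5 of the 7 entries, and it occurred in 54.9% of 32851 RefSeq promoters of that length. CTAATG occurred in the Ntrk2 entry alone, with the first base of its TAAT 103 bases before the start, against 6.36% of all promoters. Areg was the only 1 of these entries with 2 TAAT matches, at 237 and 145 bases before the start, Dapl1 had 1 at 87 bases, and P2ry1 had none. A match describes the letters and not a bound site. The sequences read 5′ to 3′ along the gene's strand and end at the base before the start, with TAAT in capitals.
Ntrk2 (chr13:58806319-58806568, plus strand): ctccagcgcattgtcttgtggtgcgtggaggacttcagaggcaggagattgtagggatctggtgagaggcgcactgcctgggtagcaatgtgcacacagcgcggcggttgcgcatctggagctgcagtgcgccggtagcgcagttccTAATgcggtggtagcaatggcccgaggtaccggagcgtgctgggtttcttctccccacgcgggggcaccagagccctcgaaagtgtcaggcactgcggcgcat
Areg (chr5:91139349-91139598, plus strand): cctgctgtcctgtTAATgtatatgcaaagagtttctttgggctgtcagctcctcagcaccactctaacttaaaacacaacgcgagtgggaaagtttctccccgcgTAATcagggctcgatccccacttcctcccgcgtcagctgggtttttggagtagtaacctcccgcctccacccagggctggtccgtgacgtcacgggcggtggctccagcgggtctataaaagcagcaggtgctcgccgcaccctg
P2ry1 (chr3:61002535-61002784, plus strand): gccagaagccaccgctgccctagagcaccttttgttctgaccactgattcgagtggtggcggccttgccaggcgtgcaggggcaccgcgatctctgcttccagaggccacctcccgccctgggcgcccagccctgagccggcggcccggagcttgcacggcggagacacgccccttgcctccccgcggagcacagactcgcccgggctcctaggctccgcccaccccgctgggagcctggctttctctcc
Dapl1 (chr2:59484403-59484652, plus strand): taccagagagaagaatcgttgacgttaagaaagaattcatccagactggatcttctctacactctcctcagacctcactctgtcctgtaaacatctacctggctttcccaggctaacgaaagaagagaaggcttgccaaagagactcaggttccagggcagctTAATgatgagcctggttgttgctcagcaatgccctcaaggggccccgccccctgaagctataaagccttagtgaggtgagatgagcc

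In control islets the 7 genes fell into 3 patterns by the hormone class (insulin, Gcg, Sst or Ppy) with their highest level, as the plot of levels by class shows. Ntf3 and Areg were highest in Sst-rich cells, Ntrk2, P2ry1 and Loxl2 in insulin-rich cells, and Pappa2 and Dapl1 in Gcg-rich cells. Each of the 7 genes kept its highest class when cells at the threshold of a further hormone were left out, and when levels were taken over UMIs outside the islet hormones. This order covers the 4 hormone classes: Dapl1 was higher in the 113 Ttr-rich control cells, at 248 CPM against 130 in Gcg-rich cells. Loxl2 was higher in control cells with mesenchymal marker transcripts, at 124 CPM against 8.16 in insulin-rich cells. P2ry1 stood at 24.8 CPM (13.9 to 40.96) in those mesenchymal-marker cells, an interval that holds the 15.1 CPM of insulin-rich cells. Over UMIs outside the islet hormones P2ry1 was lower in them, at 25.7 CPM (14.4 to 42.35) against 48.7 (45.1 to 52.6). Levels are CPM of the class total, are compared within a gene only, and are not corrected for transcript length. In Isl1CKO, Ntrk2 and Dapl1 were counted mainly in Ttr-rich cells, Loxl2 almost entirely outside the hormone classes, and Pappa2 in all the larger classes.

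**Figure D1:**
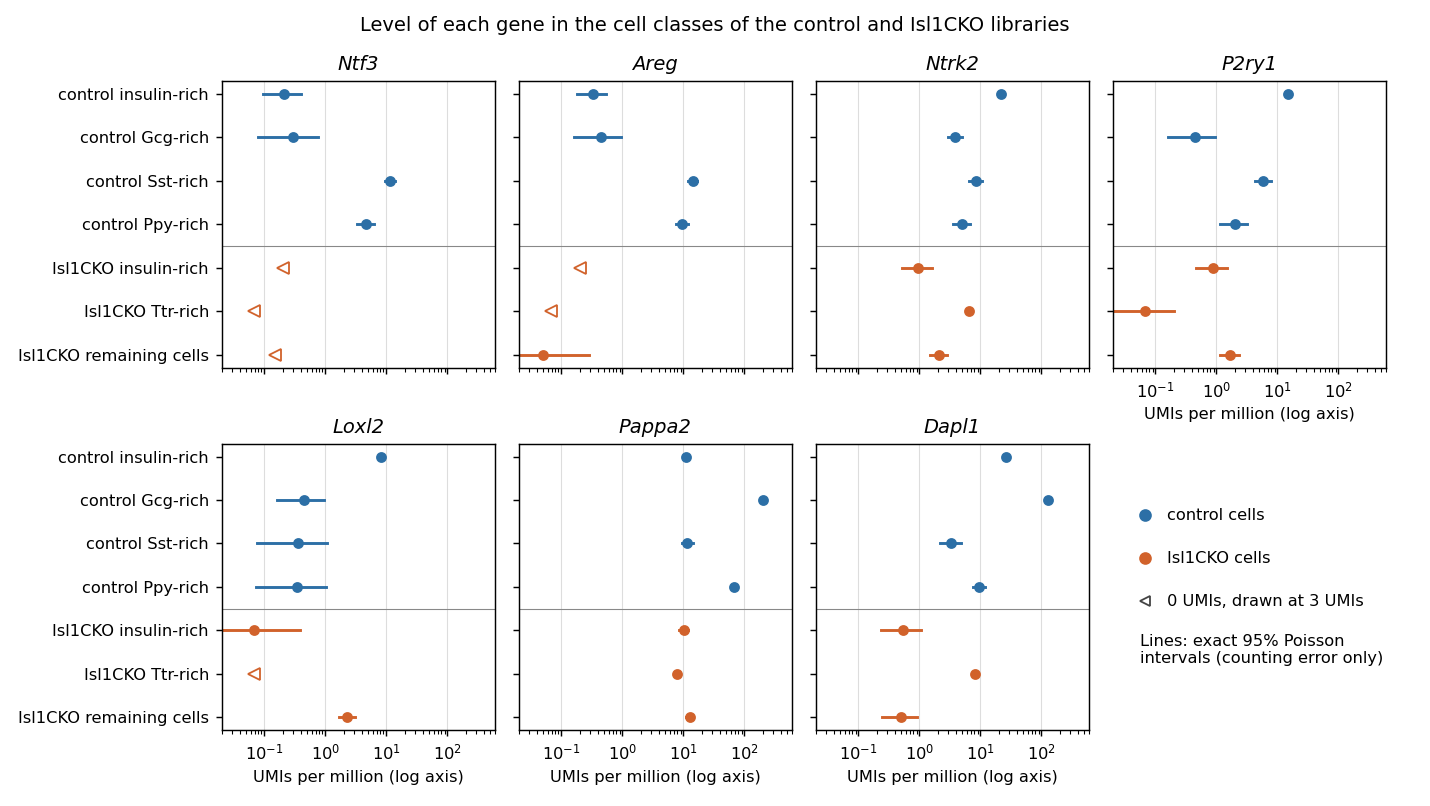
Level of each gene in 4 control and 3 Isl1CKO cell classes, in CPM of the class total on a log axis. Points are class sums, lines exact 95% Poisson intervals (3 run past the left edge) and open triangles classes with 0 UMIs, drawn at a floor of 3 UMIs. Among the 4 control classes drawn, Ntf3 and Areg are highest in Sst-rich cells, Ntrk2, P2ry1 and Loxl2 in insulin-rich and Pappa2 and Dapl1 in Gcg-rich cells. Pappa2 is nearly level between the insulin-rich classes in CPM of all UMIs, though not over UMIs outside the islet hormones.

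Ntf3 (ENSMUSG00000049107.13; chr6:126101412-126166910, minus strand) was counted in control cells and not at all in Isl1CKO cells. Control cells held 133 Ntf3 UMIs, or 1.83 CPM (1.54 to 2.17), in 99 of 2504 cells. Of these, 107 UMIs lay in the 739 cells that were Sst-rich, Ppy-rich or both and neither insulin-rich nor Gcg-rich. The level was 11.6 CPM in Sst-rich cells (9.39 to 14.2; 96 UMIs), 4.67 in Ppy-rich cells (3.33 to 6.36; 40 UMIs), 0.293 in Gcg-rich cells (4 UMIs) and 0.210 in insulin-rich cells (9 UMIs). The intervals of the last 2 overlapped, and those of Sst-rich and Ppy-rich cells did not. In cells that were Sst-rich with no other hormone at its threshold Ntf3 was 13.02 CPM (10.1 to 16.5), and in cells that were Ppy-rich alone it was 2.72 (1.45 to 4.65). All 3020 Isl1CKO cells together gave 0 Ntf3 UMIs, where 3 UMIs would be 0.0384 CPM. Against that floor of 3 UMIs Ntf3 was 47.7-fold lower over all cells, or -5.58 in log2. The exact interval of the log2 ratio for 133 against 0 UMIs had its upper end at -5.26, a smaller difference. This compares a library of 739 such cells with a library of 8. Fewer cells of a class and less RNA per cell cannot be told apart in a library sum, and with 6 Sst-rich Isl1CKO cells 0 Ntf3 UMIs allow a level of up to 42.4 CPM there, above the control level. In insulin-rich cells 9 control UMIs against 0 leave the gene below the minimum for a ratio.

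Areg (ENSMUSG00000029378.5; chr5:91139599-91148432, plus strand) followed the same classes. Control cells held 171 Areg UMIs at 2.36 CPM (2.02 to 2.74) in 98 cells, and Isl1CKO cells held 1 UMI at 0.0128 CPM (0.000324 to 0.0714). That UMI lay in a cell of no class. Control Sst-rich cells stood at 14.2 CPM (11.8 to 17.1; 118 UMIs) and Ppy-rich cells at 9.57 (7.61 to 11.9; 82 UMIs), against 0.440 in Gcg-rich and 0.327 in insulin-rich cells. The 188 control cells that were Sst-rich and Ppy-rich at once had the highest level, 19.3 CPM (14.5 to 25.1), above 11.1 (8.43 to 14.3) in cells that were Sst-rich alone and 5.44 (3.55 to 7.97) in cells that were Ppy-rich alone. Areg was uneven between cells of the class: 65 of 539 Sst-rich cells (12.1%, 9.43 to 15.1) had any Areg UMI, and the highest held 7. None of the 56 control cells with mesenchymal marker transcripts had an Areg UMI, which allows a share of up to 5.36%, at a median depth of 8912.5 UMIs against 14481 in Sst-rich cells. With every cell thinned to 5000 UMIs, 7.61% of Sst-rich cells (5.51 to 10.2) had an Areg UMI. The log2 ratio of Isl1CKO to control over all cells was -7.52, with an interval from -12.84 to -5.03, and the Isl1CKO library again had 8 Sst-rich or Ppy-rich cells in all. The 0 Areg UMIs in those cells allow up to 42.4 CPM in Sst-rich and 70.3 CPM in Ppy-rich Isl1CKO cells.

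**Figure D2:**
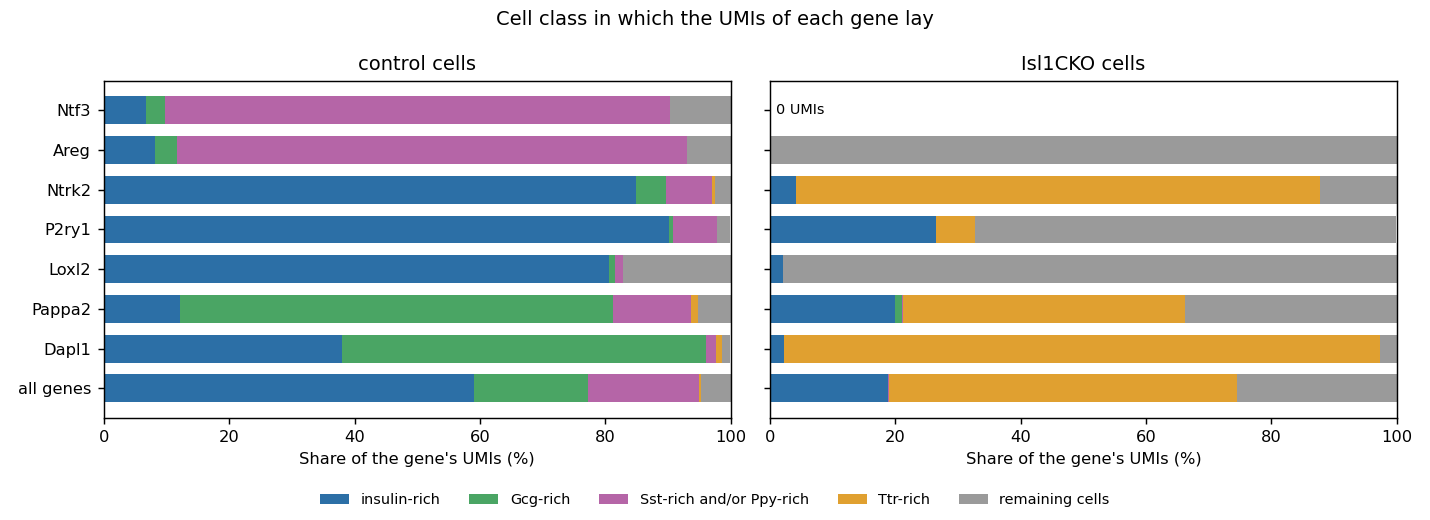
Share of each gene's UMIs by cell class in control (left) and Isl1CKO (right) cells, in percent, with the share of all UMIs in the lowest bar. A cell counts once, in the first class it meets in the order of the legend, and the Isl1CKO bar of Areg is 1 UMI. In control, 80.5% of Ntf3 and 81.3% of Areg UMIs lay in Sst-rich or Ppy-rich cells, which held 17.7% of all UMIs, and in Isl1CKO 83.7% of Ntrk2 and 95.1% of Dapl1 UMIs lay in Ttr-rich cells.

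Ntrk2 (ENSMUSG00000055254.14; chr13:58806569-59133970, plus strand) was far lower in insulin-rich Isl1CKO cells and not lower in Ttr-rich ones. Control insulin-rich cells held 933 UMIs at 21.8 CPM (20.4 to 23.3), and insulin-rich Isl1CKO cells 14 UMIs at 0.954 CPM (0.521 to 1.6), which is 22.9-fold lower. The share of insulin-rich cells with a Ntrk2 UMI was 49.3% (46.0 to 52.7) in control and 2.61% (1.26 to 4.75) in Isl1CKO, at median depths of 48339.5 and 38693 UMIs. In control Gcg-rich cells, where the gene was lowest, the share was 7.62% at a median depth of 21125. Thinned to 5000 UMIs per cell the shares were 10.2% (8.34 to 12.4) and 0.783% (0.162 to 2.27) in insulin-rich cells and 1.62% (0.780 to 2.96) in Gcg-rich cells. The other control classes ranked below insulin-rich cells, at 8.45 CPM in Sst-rich (6.59 to 10.7), 5.02 in Ppy-rich (3.63 to 6.76) and 3.89 in Gcg-rich cells (2.91 to 5.08), with overlapping intervals between neighbours in that order. In Ttr-rich Isl1CKO cells 288 UMIs gave 6.58 CPM (5.84 to 7.39), so the level was 1.69-fold higher than in control Gcg-rich cells and close to that of the 113 Ttr-rich control cells, 5.31 CPM (2.97 to 8.75). Over UMIs outside the islet hormones it was 6.66 CPM against 5.75 in control Gcg-rich cells (4.31 to 7.52), the same within counting error. Over all cells the libraries stood at 15.1 CPM (1099 UMIs) and 4.39 CPM (343 UMIs), a 3.45-fold difference over classes of unequal size. In cells with mesenchymal marker transcripts 9 control UMIs gave 14.9 CPM (6.81 to 28.3) and 14 Isl1CKO UMIs 47.9 CPM (26.2 to 80.3). Counts at the 3′ end were summed per gene, so transcripts for full-length and truncated TrkB were not told apart.

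P2ry1 (ENSMUSG00000027765.6; chr3:61002795-61008982, plus strand) was highest in insulin-rich cells among the hormone classes of control, and little of it was counted in Isl1CKO. Control insulin-rich cells held 648 of the library's 719 UMIs, at 15.1 CPM (14.0 to 16.4), and 322 of 898 cells (35.9%) had at least 1. Insulin-rich Isl1CKO cells held 13 UMIs at 0.886 CPM (0.4715 to 1.51) in 11 of 383 cells (2.87%), 17.1-fold lower. In Gcg-rich control cells 0.972% had a P2ry1 UMI. Thinned, the shares in insulin-rich cells were 6.68% (5.14 to 8.52) in control and 0 of 383 cells in Isl1CKO, which allows up to 0.783%. Among the hormone classes Sst-rich control cells were next at 5.92 CPM (4.38 to 7.82), followed by Ppy-rich cells at 1.98 (1.16 to 3.18) and Gcg-rich cells at 0.440 (0.162 to 0.958). Of the 17 Ppy-rich UMIs, 13 lay in cells that were also Sst-rich and 2 in cells that were Ppy-rich alone. Ttr-rich Isl1CKO cells held 3 P2ry1 UMIs in 1445 cells, or 0.0686 CPM (0.0141 to 0.2004), and Ttr-rich control cells held 0 in 113. The 33 UMIs in Isl1CKO cells of no class, at 1.66 CPM (1.14 to 2.33), made up 67.3% of what that library had. In cells with mesenchymal marker transcripts P2ry1 was 24.8 CPM in control (13.9 to 40.96; 15 UMIs), in 12 of 56 cells (21.4%), or 12.5% of cells (5.18 to 24.1) thinned, and 10.3 CPM in Isl1CKO (2.12 to 29.98; 3 UMIs). The other control cells outside the hormone classes held 0 P2ry1 UMIs. An exon of P2ry1 overlaps an exon of Gm37035 on the opposite strand, and the sources used here do not give the strand setting of the count. Gm37035 was counted 168 times in control, 145 of them in insulin-rich cells, and 10 times in Isl1CKO, so the division of reads between the pair is uncertain.

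Loxl2 (ENSMUSG00000034205.16; chr14:69609068-69695834, plus strand) was counted in insulin-rich control cells and in mesenchymal cells of both libraries. Insulin-rich control cells held 349 UMIs at 8.16 CPM (7.33 to 9.06) in 218 of 898 cells (24.3%), or 3.23% of cells (2.17 to 4.61) thinned to 5000 UMIs. Insulin-rich Isl1CKO cells held 1 UMI at 0.0681 CPM (0.00172 to 0.380), a log2 ratio of -6.90 with an interval from -12.21 to -4.42. Gcg-rich, Sst-rich and Ppy-rich control cells had 6, 3 and 3 UMIs, all at or below 0.440 CPM, and 1445 Ttr-rich Isl1CKO cells had 0, where 3 UMIs would be 0.0686 CPM. Of the 47 Loxl2 UMIs in Isl1CKO, 44 lay in 27 cells with 20 or more UMIs of mesenchymal markers such as Col1a1, Pdgfra and Dcn. In these cells Loxl2 was 124 CPM in control (97.7 to 156; 75 UMIs in 56 cells) and 151 CPM in Isl1CKO (109 to 202), a log2 ratio of 0.28 with an interval from -0.29 to 0.83. The mesenchymal markers themselves were at 0.818 CPM summed over 8 genes in insulin-rich control cells and 0.477 in insulin-rich Isl1CKO cells, with Pdgfrb and Lum at 0 UMIs in the former and Col1a1, Col1a2, Pdgfra, Dcn and Lum at 0 in the latter. Over all cells Loxl2 was 5.97 CPM in control and 0.602 in Isl1CKO, and with the mesenchymal-marker cells left out its log2 ratio against the median gene went from -3.89 to -7.61. Exons of Loxl2 overlap exons of Mir6950 on the same strand and of Gm27177 on the opposite strand. Both had 0 UMIs in each library, and the counts of Loxl2 carry that uncertainty.

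Pappa2 (ENSMUSG00000073530.11; chr1:158711727-158980490, minus strand) was lower over all cells in Isl1CKO but nearly level in CPM between the insulin-rich cells. Over all cells it went from 53.6 CPM in control (51.9 to 55.3; 3888 UMIs) to 9.56 in Isl1CKO (8.88 to 10.3; 746 UMIs), 5.61-fold lower. In insulin-rich cells it was 11.1 CPM in control (10.1 to 12.1; 473 UMIs) and 10.1 in Isl1CKO (8.58 to 11.9; 149 UMIs), with a log2 ratio of -0.12 from -0.40 to 0.15. A single Isl1CKO cell held 37 of the 149 UMIs, and the level without it was 7.66 CPM. Over UMIs outside the islet hormones the insulin-rich cells were not level, at 35.6 CPM in control (32.4 to 38.9) and 22.35 in Isl1CKO (18.9 to 26.2). That difference depended on a few control cells with Gcg. In the 878 insulin-rich control cells with Gcg under 1%, a choice made after seeing the data, it was 26.6 CPM (23.8 to 29.6). This interval overlaps that of Isl1CKO, where all 383 cells met the mark. In CPM of all UMIs these cells stood at 8.17 and 10.15, with a log2 ratio of 0.31 (0.02 to 0.59). In control the gene was highest in Gcg-rich cells, at 202 CPM (194 to 209) with UMIs in 486 of 617 cells (78.8%), followed by Ppy-rich cells at 67.2 CPM (61.8 to 72.9), Sst-rich cells at 11.7 (9.50 to 14.3) and insulin-rich cells. The last 2 had overlapping intervals, and over UMIs outside the islet hormones Sst-rich cells were below insulin-rich cells, at 16.9 against 35.6 CPM. Cells that were Ppy-rich alone stood at 84.3 CPM (76.2 to 92.9), and those that were Sst-rich too at 6.67 CPM (4.01 to 10.4). Ttr-rich Isl1CKO cells held 344 UMIs at 7.86 CPM (7.05 to 8.74), 25.6-fold below control Gcg-rich cells and 25.3-fold below the 113 Ttr-rich control cells, which stood at 199 CPM (183 to 216). Thinned to 5000 UMIs, 48.0% of control Gcg-rich cells (44.0 to 52.0) and 3.53% of Ttr-rich Isl1CKO cells (2.64 to 4.61) had a Pappa2 UMI, against 3 of 56 mesenchymal-marker control cells (5.36%, 1.12 to 14.9). The 2 Gcg-rich Isl1CKO cells together held 8 Pappa2 UMIs, the only 1 of the 7 genes counted in them. Exons of Pappa2 overlap exons of 1600012P17Rik on the same strand, which had 0 UMIs in control and 1 in Isl1CKO, so its counts carry that uncertainty.

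Dapl1 (ENSMUSG00000026989.5; chr2:59484653-59505020, plus strand) was lower in Isl1CKO in each class that could be compared, and was patchy from cell to cell. In insulin-rich cells it went from 26.7 CPM in control (25.2 to 28.3; 1143 UMIs) to 0.545 in Isl1CKO (0.235 to 1.07; 8 UMIs), 49-fold lower. Control Gcg-rich cells had the highest level, 130 CPM (124 to 136; 1768 UMIs), against 9.68 in Ppy-rich cells (7.71 to 12.0) and 3.26 in Sst-rich cells (2.15 to 4.74). Of the 617 Gcg-rich cells, 397 had no Dapl1 UMI and 62 had 10 or more, with a maximum of 55. In the same cells Pappa2 was absent from 131 and reached 10 or more in 83. Thinned to 5000 UMIs, 129 Gcg-rich cells had Dapl1, 296 had Pappa2 and 79 had both, where the product of the shares gives 61.9 cells. Gcg-rich cells that were also Ttr-rich had 258 CPM (238 to 278; 101 cells) and the other Gcg-rich cells 99.6 CPM (93.8 to 106). Ttr-rich Isl1CKO cells held 354 Dapl1 UMIs at 8.09 CPM (7.27 to 8.98), 16-fold below control Gcg-rich cells. In 118 of the 1445 cells (8.17%) any Dapl1 was counted, 2 cells held 64 and 34 UMIs, and the level without both was 5.86 CPM. Over all cells Dapl1 went from 41.5 to 4.74 CPM.

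**Figure D3:**
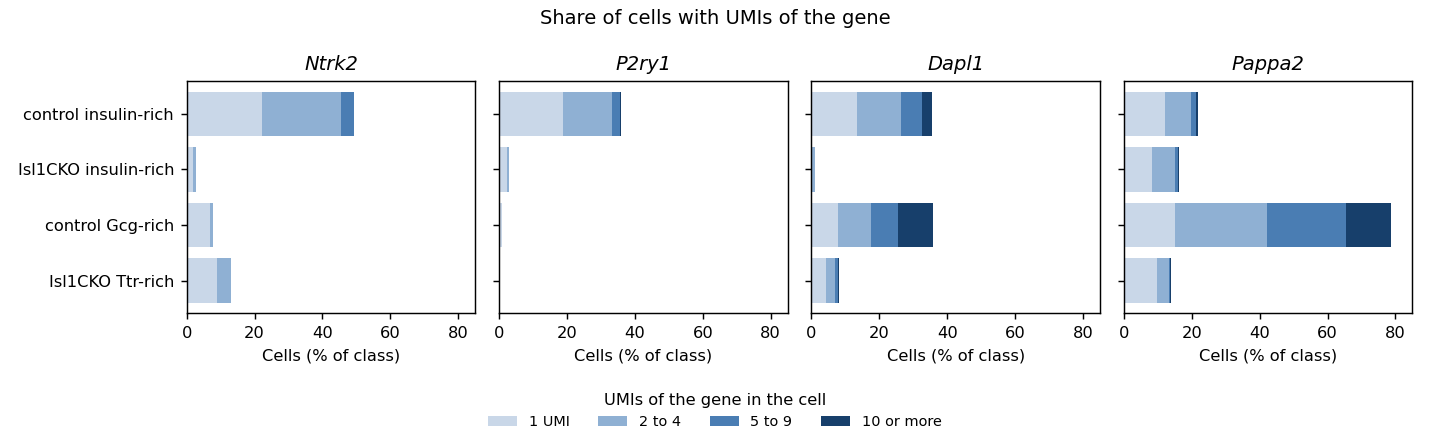
Share of cells of 4 classes with 1, 2 to 4, 5 to 9 and 10 or more UMIs of Ntrk2, P2ry1, Dapl1 and Pappa2, in percent of the class, without thinning. Pappa2 was counted in 78.8% of control Gcg-rich cells and Dapl1 in 35.7%, and Ntrk2 in 49.3% of insulin-rich control against 2.61% of insulin-rich Isl1CKO cells.

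To set the genes against the rest of the transcriptome, ratios were taken relative to the median gene among those with 50 or more UMIs in whichever library had the higher CPM, since hormones take a large part of control UMIs. The shift of that gene in log2 CPM from control to Isl1CKO was 0.58 over all cells and 0.41 in insulin-rich cells. Over all cells 7 of 7 genes were at least 2-fold below it, from -2.36 for Ntrk2 (-2.54 to -2.19) through -3.07 for Pappa2, -3.71 for Dapl1, -3.89 for Loxl2, -4.56 for P2ry1 and -6.15 for Ntf3 at the floor to -8.10 for Areg (-13.41 to -5.60). Of 14420 genes compared, 6.82% were that much lower and 5.21% that much higher. In insulin-rich cells 5 of the 7 could be compared and 4 were at least 2-fold lower: Dapl1 at -6.03 (-7.24 to -5.05), Ntrk2 at -4.93 (-5.81 to -4.17), P2ry1 at -4.51 (-5.43 to -3.73) and Loxl2 at -7.32 (-12.62 to -4.83). Of 10080 genes there, 4.73% were that much lower and 4.97% higher. Pappa2 stood at -0.54 (-0.81 to -0.27), inside the range from -0.96 to 0.99 that held the middle 90% of genes. As the members were chosen on these libraries, their counts beside those shares are a description.

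**Figure D4:**
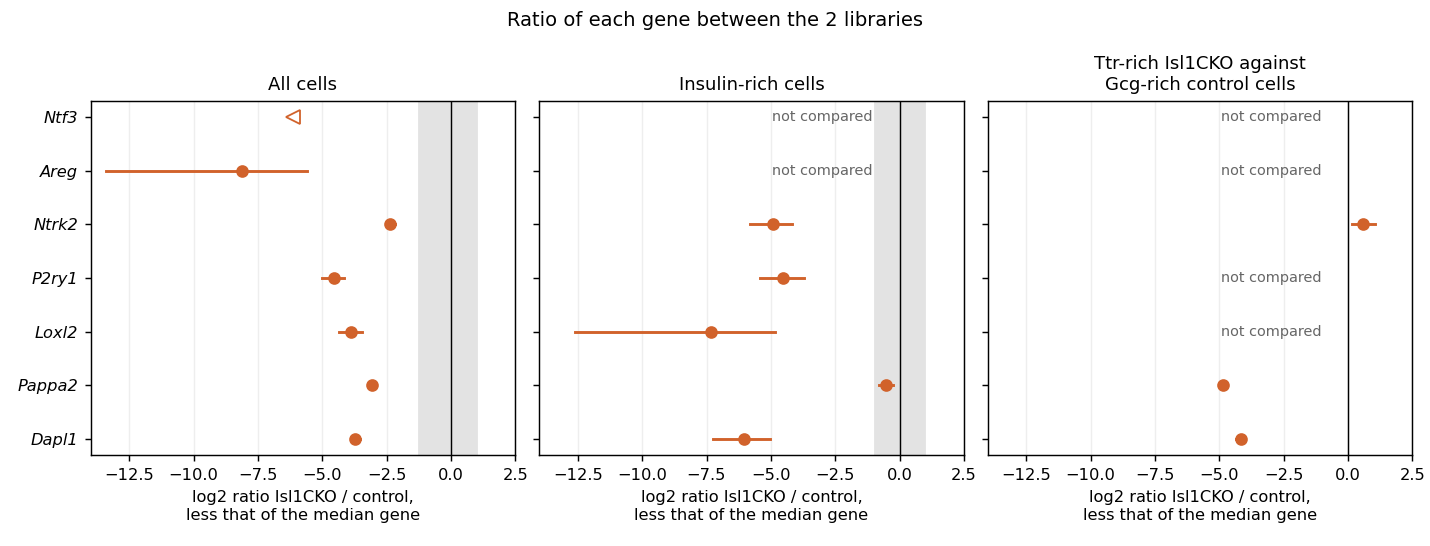
Log2 ratio of Isl1CKO to control for each gene, less that of the median gene, over all cells, in insulin-rich cells and for Ttr-rich Isl1CKO against Gcg-rich control cells. Points are ratios, lines exact 95% intervals, the open triangle a ratio against a floor of 3 UMIs, and grey bands the 5th to 95th percentile of all genes compared, drawn for the first 2 panels. All 7 genes lie left of the band over all cells, while Pappa2 lies inside it in insulin-rich cells and Ntrk2 lies right of 0 in the last panel.

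In Ttr-rich Isl1CKO against Gcg-rich control cells, 3 of the 7 genes could be compared and the 2 that are highest in Gcg-rich control cells were lower. The relative log2 ratio was -4.85 for Pappa2 (-5.02 to -4.69) and -4.18 for Dapl1 (-4.35 to -4.01), where 7.21% of 11977 genes were at least 2-fold lower, and 0.59 for Ntrk2 (0.16 to 1.04). The same genes compared between Ttr-rich cells of both libraries gave -5.14 for Pappa2, -5.42 for Dapl1 and -0.17 for Ntrk2 (-0.92 to 0.69), where 3.35% of 10246 genes were at least 2-fold lower. The 113 Ttr-rich control cells had a median of 30.6% of UMIs from Gcg, and the 1445 Isl1CKO ones 0.0147%, so the classes share Ttr and not the hormone, and 102 control cells lay near the Ttr threshold, at 4% to 6.25% of UMIs. Both comparisons set different cells side by side, and whether they are the same cell type was not tested. The cells outside the hormone classes were unlike sets, since Ttr-rich cells were left out of the 1190 Isl1CKO cells but not of the 257 control cells. The 12 Ttr-rich cells among the latter held 32 of their 71 Dapl1 and 41 of their 248 Pappa2 UMIs. Between these sets Dapl1 stood at -5.36 (-6.48 to -4.40), Loxl2 at -3.22 (-3.78 to -2.67) and Pappa2 at -2.51 (-2.77 to -2.25). The tally of 3 of 3 lower, beside 6.07% of 10476 genes at least 2-fold lower, decides nothing, because the sets are unlike. Dapl1 (71 control and 10 Isl1CKO UMIs) and Loxl2 (74 and 46) also reached the minimum of 50 UMIs for a comparison in control alone. For Loxl2 nearly all of these UMIs lay in cells with mesenchymal marker transcripts, since 1 control and 2 Isl1CKO UMIs remained without such cells, while within the mesenchymal-marker cells its log2 ratio was 0.28 (-0.29 to 0.83).

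Insulin-rich cells were also compared by Msln, which encodes mesothelin and was counted in 270 of the 383 Isl1CKO and 287 of the 898 control insulin-rich cells. In these cells, a choice made after seeing the data, Ntrk2 was 18.7 against 0.824 CPM, P2ry1 12.2 against 0.824, Loxl2 6.71 against 0.0915 (1 UMI) and Dapl1 26.7 against 0.366. Pappa2 was 8.24 against 6.04 CPM. The same 4 of 5 genes compared were at least 2-fold lower, against 2.72% of 8747 genes. In the insulin-rich cells with no Msln UMI, 4 of 5 were, against 7.42% of 6579 genes, and Pappa2 stood at 0.27 (-0.09 to 0.62) relative to the median gene, or at -0.56 without the Isl1CKO cell that held 37 Pappa2 UMIs.

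Cells could also be split by sex, because each library held cells with Y-linked UMIs and cells with Xist UMIs. Cells with Y-linked and no Xist UMIs were 615 of the insulin-rich control and 130 of the insulin-rich Isl1CKO cells, and cells with Xist UMIs but none from Y-linked genes 188 and 221. Ntrk2, P2ry1, Loxl2 and Dapl1 were at least 2-fold lower in Isl1CKO in both, 4 of 5 genes compared in the former (6.69% of 7188 genes) and, with Pappa2, 5 of 5 in the latter (3.26% of 7887). P2ry1 went from 13.6 to 1.53 CPM in the former and from 20.4 to 0.567 in the latter, and Ntrk2 from 22.6 to 1.09 and from 19.4 to 0.794. Pappa2 was higher in Isl1CKO in cells with Y-linked UMIs, from 9.79 (8.70 to 10.98) to 21.6 CPM (17.6 to 26.3), and lower in cells with Xist UMIs, from 12.2 (9.97 to 14.7) to 4.99 CPM (3.63 to 6.70). Relative to the median gene the ratios were 0.50 and -1.55. Without the Isl1CKO cell with 37 UMIs the former level was 13.7 CPM and its relative ratio -0.16, so the side of the median gene rested on that cell. Dapl1 in Gcg-rich control cells was 109 CPM with Y-linked UMIs (102 to 116) and 197 CPM with Xist UMIs (181 to 213). In Ttr-rich Isl1CKO cells the same split gave 4.93 CPM (4.07 to 5.92) and 13.4 CPM (11.7 to 15.3), or 7.69 CPM for the latter without its 2 leading cells. The sources used here do not give the number of animals of each sex in a pool, so sex and animal cannot be told apart.

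Levels in CPM of Dapl1, Loxl2, P2ry1, Ntrk2, Pappa2 and Isl1 were higher in cycling than in other insulin-rich control cells. The share of all genes that were higher there was not taken. UMIs outside the islet hormones made up 36.5% of UMIs in the cycling and 30.6% in the other cells. Ntf3 and Areg had 0 UMIs in the cycling ones. In the 75 insulin-rich control cells with 3 or more UMIs of cell-cycle genes, Dapl1 was 61.0 CPM (53.0 to 70.0) against 23.8 in the other 823, Loxl2 16.5 (12.5 to 21.5) against 7.44, P2ry1 27.1 (21.9 to 33.3) against 14.1 and Ntrk2 32.2 (26.4 to 38.8) against 20.9. Pappa2 was 23.3 (18.5 to 29.0) against 10.0 CPM, and Isl1 was 135 (123 to 148) against 83.45. A single cycling cell held 28 of the 79 Pappa2 UMIs, and the 10 leading cells 87.3% of them. Over UMIs outside the islet hormones the intervals of Ntrk2 overlapped, at 88.1 CPM (72.4 to 106) and 68.3 (63.75 to 73.2). Only 5 insulin-rich Isl1CKO cells met that mark, and they held 4 of the 8 Dapl1 UMIs. With non-cycling cells alone, Dapl1 was 23.8 against 0.276 CPM.

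Transcripts outside cells were read from 1864285 control barcodes with 1 to 100 UMIs. There Ntf3 stood at 2.11 CPM (11 UMIs), Areg at 1.15 (6), Ntrk2 at 5.76 (30), P2ry1 at 6.15 (32), Loxl2 at 1.34 (7), Pappa2 at 18.6 (97) and Dapl1 at 46.5 (242). In the median cell of a class with no other hormone at its threshold, Sst, Gcg or Ins2 transcripts of another class were at 0.376% to 1.37% of their level outside cells. Class sums, which the levels of the genes are, stood higher and include cells with several hormones. By class sums Gcg was 5640 CPM in Sst-rich and 2630 in insulin-rich control cells, against 47400 outside cells. What part such transcripts have in the low levels of a gene outside its main class was not tested. The Isl1CKO matrix held no barcodes of this kind.

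The related genes of each member were taken from lists that were written with earlier results of these data known, and the plot of related genes shows them. Where a list holds a member, that gene was chosen for being low, so part of the list's count and median was set in advance. Of all genes compared, 6.82% were at least 2-fold lower and 5.21% higher over all cells, and 4.73% and 4.97% in insulin-rich cells. Of 7 neurotrophin receptor and sortilin genes compared over all cells, 2 were at least 2-fold lower and 1 higher, with a median of -0.65 against 0.00 for all genes. Ntrk3, which encodes TrkC, the main receptor of neurotrophin-3, was the other lower gene at -2.85 (-3.59 to -2.18; 99 and 22 UMIs), and Ngfr, encoding the p75 receptor, was higher at 1.55 (0.78 to 2.4; 17 and 80 UMIs). All 22 Isl1CKO Ntrk3 UMIs lay in cells of no class. Bdnf, encoding the ligand of TrkB, stood at 0.20 (-0.04 to 0.45) over all cells and 0.90 (0.34 to 1.46) in insulin-rich cells. Sort1, encoding sortilin, stood at 0.42 and 0.52.

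Of 7 EGF family ligands compared over all cells, 3 were at least 2-fold lower and 1 higher, with a median of -0.73. Beside Areg these were Tgfa at -2.30 (-2.80 to -1.82), encoding transforming growth factor alpha, and Hbegf at -1.24 (-1.40 to -1.07), encoding heparin-binding EGF-like growth factor, while Nrg1, encoding neuregulin 1, stood at 1.18 (0.39 to 2.05). In insulin-rich cells Tgfa at -2.31 (-3.81 to -1.11; 65 and 6 UMIs) and Hbegf at -1.37 (-1.72 to -1.04; 492 and 87 UMIs) were both lower, the 2 of 2 compared. None of 8 EGF receptor, sheddase and feedback genes passed 2-fold over all cells. In insulin-rich cells 2 of 5 did, Erbb3, encoding an EGF receptor family member, at 1.79 (1.28 to 2.32) and Lrig1, encoding an inhibitor of these receptors, at 1.59 (1.21 to 1.98), both higher.

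Of 7 purinergic receptor genes compared over all cells, 4 were at least 2-fold lower and none higher, with a median of -1.54. These were P2ry1, the adenosine receptor genes Adora2b at -2.47 (-3.01 to -1.96) and Adora1 at -1.54 (-1.78 to -1.30), and P2ry12, encoding a further ADP receptor, at -2.12 (-2.65 to -1.61). In insulin-rich cells Adora2b was again lower, at -2.05 (-3.10 to -1.15), and Adora1 stood at 0.38 and P2ry12 at -0.81. P2rx4, encoding an ATP-gated channel, stood at 0.19 and -0.02. Of 8 genes of nucleotide release and hydrolysis 1 was lower and 1 higher over all cells, with a median of -0.24 that was 0.34 when ratios were not centred on the median gene. Nt5e, which encodes the ecto-enzyme that makes adenosine from AMP, was higher over all cells at 2.84 (2.56 to 3.14; 108 and 1247 UMIs) and in insulin-rich cells at 3.47 (3.07 to 3.89; 62 and 314 UMIs), while Panx2, a pannexin gene, stood at -1.17 over all cells.

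Loxl1 and Loxl3 of the same enzyme family stood at 0.80 (0.54 to 1.06) and 0.86 (0.33 to 1.42) over all cells, and Loxl2 was the only 1 of the 3 lysyl oxidase genes compared that was 2-fold lower. Most Isl1CKO Loxl1 UMIs, 382, lay in Ttr-rich cells. Of 12 substrate and basement membrane genes compared, 5 were lower and 1 higher, with a median of -0.77 that became 1.41 without mesenchymal-marker cells. The collagen gene Col3a1 stood at -1.87, and 1024 of its 1030 Isl1CKO UMIs lay in cells of no class, which include the mesenchymal ones (56 in control and 27 in Isl1CKO). Lama5, a laminin gene, was the higher 1 at 1.66 (1.35 to 1.98).

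Among the 4 pappalysin and stanniocalcin genes 3 were lower, the chosen Pappa2 among them, with a median of -1.97. Pappa, encoding the other pappalysin, stood at -2.47 (-3.37 to -1.64) with 37 of its 55 control UMIs in Sst-rich cells, and Stc1, encoding a pappalysin inhibitor, at -1.47 (-2.18 to -0.78). Of 11 insulin-like growth factor genes 1 was lower and 3 higher, with a median of -0.16 that was 0.42 when ratios were not centred on the median gene. The lower gene was Igfbp5, encoding a binding protein that pappalysin-2 cuts, at -4.69 (-5.16 to -4.26; 725 and 45 UMIs), and it was also lower in insulin-rich cells at -3.31 (-4.46 to -2.36). In control it was highest in Sst-rich cells, at 38.2 CPM. Igfbp3, encoding the other binding protein that pappalysin-2 cuts, was higher at 4.40 (3.97 to 4.86; 44 and 1490 UMIs), with 946 of the Isl1CKO UMIs in Ttr-rich cells, and Igfbp1 and Igfbp2 were higher at 2.88 and 1.81. The receptor genes Igf1r, Igf2r and Insr stood between -0.31 and -0.10, and above 0 when ratios were not centred. Dap, the nearest relative of Dapl1 in the lists, stood at 0.13 over all cells and -0.39 in insulin-rich cells.

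**Figure D5:**
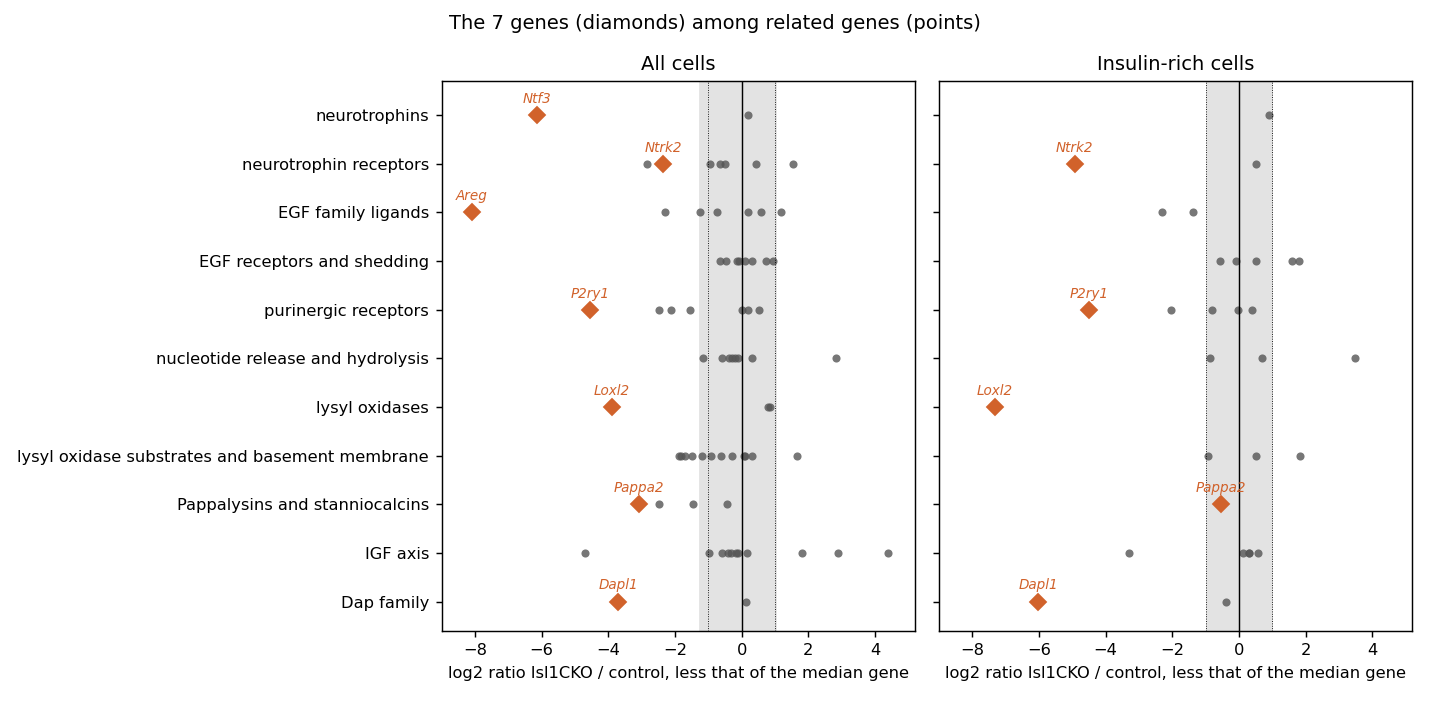
Log2 ratio of Isl1CKO to control less that of the median gene, for the 7 genes (diamonds) and the related genes of each list that could be compared (points), over all cells and in insulin-rich cells. Grey bands hold the 5th to 95th percentile of all genes compared and dotted lines mark a 2-fold difference. Igfbp5 at -4.69 lies to the left of Pappa2 over all cells, and Igfbp3 at 4.40 and Igfbp1 at 2.88 lie farthest to the right there.

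Genes with the most similar pattern over classes, whatever their level, were ranked by Pearson's r of log2(CPM + 1) over 8 groups, 5 control and 3 Isl1CKO class sums, among 12967 genes. The groups share libraries and depth, so r is a description. Closest to Ntf3 were Nhs (0.996), Dscam (0.992) and Col25a1 (0.992), and to Areg Cacna2d2 (0.996), Ghsr (0.995), encoding the ghrelin receptor, and Dscam (0.994). Dscam, an adhesion molecule gene, was 33.8 CPM in control Sst-rich cells and at most 0.351 in the Isl1CKO groups. For Loxl2 they were Igsf11 (0.979), Matn2 (0.926) and Col6a3 (0.911), of which the collagen gene Col6a3 was 110 CPM in control cells of no class. For Pappa2 BC055308 (0.957) was the closest in pattern, at only 0.48 to 1.69 CPM over the groups, near the 1 CPM added before the logarithm. For P2ry1 they were Lgals12 (0.940), Tmem229b (0.900) and S100a4 (0.900). For Dapl1 they were Tmsb15b2 (0.896), Xylt1 (0.894) and Tmsb15l (0.893), and the thymosin gene Tmsb15b2 was 676 CPM in Gcg-rich control and 88.2 in Ttr-rich Isl1CKO cells. The nearest genes to Ntrk2 were less alike, Pthlh (0.833), Abcb1b (0.821) and Abcb4 (0.781). Like BC055308, Igsf11, Pthlh, Abcb1b and Abcb4 were low, at no more than 1.88, 1.78, 1.96 and 2.41 CPM in any group.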

How the data were processed

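Single-cell UMI counts per gene and barcode were deposited by the authors for 1 control and 1 Isl1CKO library. Per the submitters' processing notes, STARsolo, STAR 2.7.3a, Seurat 4.3.0.1 and GRCm38.p6 were used, and the annotation release and strand setting of the counting are not given in the sources used here. The deposited control matrix is unfiltered, with 1919728 of 6794880 barcodes above 0 UMIs, and the Isl1CKO matrix holds 3020 barcodes from 4882 UMIs up. Control barcodes with 6825 or more UMIs were taken as cells, 1/10 of the 99th percentile of the top 3000, and all Isl1CKO barcodes were kept. Classes were set by shares of UMIs as the report states. Doublets were called with Scrublet through scanpy 1.11.5, which marked 22 control (0.879%) and 8 Isl1CKO cells (0.265%). The shares expected from the cell numbers were 2% and 2.42%, so the caller may not have worked in either library, and no cell was removed.

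UMIs were summed by library and class, divided by the total and given per 1000000 UMIs (CPM). Ratios were centred on the median gene among genes that had 50 or more UMIs in whichever library gave the higher CPM, and a gene was called at 2-fold. A count of 0 was set against 3 UMIs over the group. Intervals are exact Poisson, conditional binomial and Clopper-Pearson intervals at 95% that cover counting error only. No test was made, as each genotype has 1 library, so the depth per library sets the precision. The ratio and interval code was tested on simulated data. The scripts ran in Python 3.11.15 with matplotlib 3.10.9, pandas 2.3.3, scipy 1.17.1 and numpy 2.4.6.

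The genes named are the 7 members, Isl1, the genes of 11 lists of relatives, and for each member the 3 genes with the highest Pearson correlation over class sums. That ranking left out mitochondrial, ribosomal, Xist and Y-linked genes, the other members and uncharacterised genes with Gm, AC or Rik symbols. Marker genes named were taken from lists for islet and other pancreatic cell types. Members and lists were chosen with earlier results of these data known. Gene positions come from GENCODE M21 on GRCm38 and promoters from RefSeq on GRCm38.p6. Alternatives varied the scaling, the choice of cells, the class thresholds, thinning to 5000 UMIs, removal of free RNA and the minimum UMIs. Some results for genes that fall under these rules are not reported here.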

Additional observations from a re-analysis of the deposited data

Results flagged for a closer look

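Ntrk2 stood on opposite sides of the median gene in 2 classes: the log2 ratio of Isl1CKO to control was -4.93 in insulin-rich cells and 0.59 for Ttr-rich Isl1CKO against Gcg-rich control cells. Pappa2 did so between insulin-rich cells with Y-linked UMIs, at 0.50, and those with Xist UMIs, at -1.55. With 1 library per genotype neither difference was tested. Over UMIs outside the islet hormones Ntrk2 was 6.66 CPM in Ttr-rich Isl1CKO and 5.75 in Gcg-rich control cells, the same within counting error. A single cell held 37 of the 99 Pappa2 UMIs in the Isl1CKO cells with Y-linked UMIs, and without it the ratio was -0.16, on the same side of the median gene as in cells with Xist UMIs.

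All 7 genes were also counted in control barcodes that were not taken as cells. Barcodes with 1 to 100 UMIs held 11 UMIs of Ntf3, 30 of Ntrk2, 6 of Areg, 32 of P2ry1, 7 of Loxl2, 242 of Dapl1 and 97 of Pappa2. The 872 barcodes from 1000 UMIs up to the cell threshold held 5 UMIs of Ntf3, 20 of Ntrk2, 21 of P2ry1, 41 of Loxl2, 31 of Dapl1 and 212 of Pappa2, with a median of 20.4% mitochondrial UMIs. Pappa2 stood at 96.5 CPM in the latter barcodes and Loxl2 at 18.7 CPM, against 53.6 and 5.97 CPM in control cells.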

How the results depend on the processing

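The members' ratios took 228 values under alternatives. Of these, 184 stayed within the counting interval of the main ratio and 42 moved outside it without changing sign. As the genes were chosen for being low in Isl1CKO, staying below 0 was largely set in advance. Of the 228 values, 226 stayed below 0. The other two were of Pappa2 in insulin-rich cells, at -0.54, which was 0.50 in cells with Y-linked UMIs and 0.27 in cells with no Msln UMI. Without the Isl1CKO cell with 37 Pappa2 UMIs these were -0.16 and -0.56. Members at least 2-fold lower numbered 5 to 7 over all cells and 3 to 5 in insulin-rich cells, and fewer genes were compared at a minimum of 200 UMIs. Over all cells each member stood at -1.79 or lower in every alternative that compared it, so counts below 7 reflect members not compared. In insulin-rich cells Ntrk2, P2ry1, Loxl2 and Dapl1 stood at -3.79 or lower wherever they were compared. In the main setting 6.82% and 4.73% of all genes compared were at least 2-fold lower. Ntrk2 over all cells ranged from -2.70 to -1.79 and Loxl2 from -7.61 to -2.30. Over all cells 983 genes were lower and 752 higher. The counts were 1588 and 468 on UMIs outside the islet hormones without centring, 508 and 2444 without centring, 538 and 396 thinned, 4328 and 3005 with no minimum, and 497 and 446 at a minimum of 200. Of the called genes 43.3% were higher, against 22.8% on UMIs outside the hormones and 82.8% without centring. In insulin-rich cells 477 genes were lower and 501 higher. The counts were 256 and 1112 without centring, 143 and 157 thinned, 1535 and 4317 with no minimum, and 198 and 204 at a minimum of 200. Cells with Y-linked UMIs gave 328 higher. Of the called genes 51.2% were higher, against 81.3% without centring and 40.9% on UMIs outside the hormones. Chosen after seeing the data, insulin-rich cells with a Msln UMI gave 238 lower genes, those with no Msln UMI 306 higher (38.5% of called genes) and those with Xist UMIs 257 lower. No paired analysis was possible because each genotype has 1 library. The number of Sst-rich or Ppy-rich Isl1CKO cells, 8, limits what can be said of Ntf3 and Areg.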
